A study of Drosophila melanogaster with 2 samples.

Results

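The proteasome subunit genes of Drosophila melanogaster were examined in a chromatin immunoprecipitation and sequencing (ChIP-seq) map of the protein encoded by CG10462. The genes were taken from the Ensembl release 115 annotation of the dm6 assembly by symbol, as protein-coding genes named Prosalpha, Prosbeta, Rpn or Rpt followed by a number. This gave 32 of 13945 protein-coding genes, with 7 Prosalpha, 7 Prosbeta, 12 Rpn and 6 Rpt genes. All samples came from whole embryos 0 to 24 h old, males and females pooled, of a transgenic line that stably expressed CG10462 with GFP at its C-terminus, and an antibody to GFP was used. The promoter that drove the transgene is not given in the sources used here. There were 2 samples, labelled biological replicates 2 and 3, in 1 group, and the labels cite a different protocol document for each. Chromatin was sheared by sonication to 200 to 800 bp, and no control or untagged sample was analysed here, so nothing below is a comparison between conditions.

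The proteasome is the large protease of the nucleus and cytosol that degrades proteins marked with ubiquitin. Its barrel-shaped core particle is built of stacked rings of alpha subunits (Prosalpha), which form the gate, and beta subunits (Prosbeta), some of which carry the proteolytic sites. The regulatory particle that caps the core holds a ring of ATPases (Rpt), which unfold substrates and feed them into the core, and non-ATPase subunits (Rpn), which bind ubiquitin, remove it and hold the particle together. The subunits assemble in fixed proportions, and in many organisms their genes are expressed together.

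A gene was called occupied where the summit of a peak in the optimal list lay within 500 bp of one of its transcript starts. The optimal list held 2993 peaks and came from the authors' filter on the irreproducible discovery rate (IDR), which is based on how well ranks agree between replicates. The relaxed lists for the pooled reads, replicate 2 and replicate 3 held 30000 entries each, weak ones included, so a place in them alone is a loose criterion. The optimal list was the top 2993 entries of the pooled list, so a peak in it can have unlike ranks in the replicates. Signal values and the ranks made from them are the authors' own, their scaling is not stated, and the read depth behind them is unknown. Rank 1 is the strongest entry, and ranks were set side by side only between lists of the same length.

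In the optimal list, 5 of 32 proteasome genes (15.6%) were occupied, against 14.7% of all protein-coding genes, so the proteasome genes as a whole were near the background. All 5 encode regulatory particle subunits: Rpn3, Rpn5, Rpn11, Rpt2 and Rpt5. They made up 5 of 18 regulatory particle genes (27.8%), whereas 0 of 14 core particle genes were occupied. By subunit type, 3 of 12 Rpn genes (25.0%) and 2 of 6 Rpt genes (33.3%) were occupied. Whether regulatory and core genes differ was not tested, because the genes were chosen with results of these data known.

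The sequences of the 5 occupied promoters, from 250 bases before to 50 bases after the start, show the base composition and the short consensus matches that are described further below. All are from the Release 6 reference assembly (dm6), read 5′ to 3′ on the strand of the gene, and capitals mark matches to the 8 consensus sequences searched. They lie at chr2L:19051540-19051839 (plus strand, Rpn3), chr3R:5789243-5789542 (plus strand, Rpn5), chr2L:5059741-5060040 (minus strand, Rpn11), chr3R:23931509-23931808 (minus strand, Rpt2) and chr3R:23752626-23752925 (plus strand, Rpt5). Counted from the first base printed, the pooled summit was base 171 for Rpn3, base 27 for Rpn5, base 259 for Rpt2 and base 242 for Rpt5. The Rpn11 summit lay outside the promoter window, so 101 bases centred on it (chr2L:5060081-5060181, minus strand) are added, a window chosen after the summit's place was seen. Prosbeta4 (chr2L:16732084-16732383, minus strand) is shown as a core gene that had no entry in any of the lists. Its promoter had the lowest share of G and C bases of the 32, at 23.0%, so it is an extreme and not a typical gene without an entry.
Rpn3: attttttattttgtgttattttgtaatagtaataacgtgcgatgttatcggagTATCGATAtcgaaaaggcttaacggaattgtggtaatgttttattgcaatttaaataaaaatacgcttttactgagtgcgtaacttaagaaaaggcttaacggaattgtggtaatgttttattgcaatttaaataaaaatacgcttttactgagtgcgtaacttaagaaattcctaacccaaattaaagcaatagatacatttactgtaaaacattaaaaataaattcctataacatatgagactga
Rpn5: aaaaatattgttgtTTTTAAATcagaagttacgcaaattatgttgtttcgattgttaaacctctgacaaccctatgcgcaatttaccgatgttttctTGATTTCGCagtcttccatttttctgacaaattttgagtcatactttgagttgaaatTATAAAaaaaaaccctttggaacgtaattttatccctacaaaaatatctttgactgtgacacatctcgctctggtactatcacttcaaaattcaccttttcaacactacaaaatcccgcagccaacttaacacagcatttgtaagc
Rpn11: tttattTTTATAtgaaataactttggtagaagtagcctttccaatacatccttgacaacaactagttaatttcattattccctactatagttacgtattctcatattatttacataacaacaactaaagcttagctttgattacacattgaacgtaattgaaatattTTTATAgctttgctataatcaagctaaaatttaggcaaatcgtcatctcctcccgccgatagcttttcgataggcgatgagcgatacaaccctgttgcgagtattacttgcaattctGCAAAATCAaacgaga
Rpn11 summit: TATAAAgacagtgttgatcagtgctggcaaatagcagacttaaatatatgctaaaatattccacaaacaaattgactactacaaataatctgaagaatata
Rpt2: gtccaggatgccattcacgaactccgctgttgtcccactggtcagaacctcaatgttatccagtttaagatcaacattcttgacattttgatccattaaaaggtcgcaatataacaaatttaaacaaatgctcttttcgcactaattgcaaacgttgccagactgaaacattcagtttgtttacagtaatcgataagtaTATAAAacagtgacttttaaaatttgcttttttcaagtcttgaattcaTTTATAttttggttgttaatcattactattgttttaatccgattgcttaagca
Rpt5: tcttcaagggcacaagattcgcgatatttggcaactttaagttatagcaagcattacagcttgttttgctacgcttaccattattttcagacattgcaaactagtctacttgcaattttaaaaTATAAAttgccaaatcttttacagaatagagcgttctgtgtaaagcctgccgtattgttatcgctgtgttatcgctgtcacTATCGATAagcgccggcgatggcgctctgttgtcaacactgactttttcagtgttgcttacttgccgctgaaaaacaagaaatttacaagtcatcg
Prosbeta4: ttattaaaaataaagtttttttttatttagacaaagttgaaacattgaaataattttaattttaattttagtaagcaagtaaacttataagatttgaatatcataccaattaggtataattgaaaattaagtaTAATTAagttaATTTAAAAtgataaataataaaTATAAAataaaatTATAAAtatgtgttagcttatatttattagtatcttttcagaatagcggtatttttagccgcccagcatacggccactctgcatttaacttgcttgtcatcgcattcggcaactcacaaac

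Rpn3, a subunit of the lid of the regulatory particle, held the strongest entry of the proteasome genes. The gene (FBgn0261396) lies at chr2L:19051790-19053681 on the plus strand, and its pooled summit at base 19051710 was 80 bp upstream of the start, outside annotated genes. Its entry had a signal value of 148 and rank 627 in the pooled list, 82.8 and rank 801 in replicate 2, and 64.3 and rank 545 in replicate 3. Both replicates placed it among their strongest 2993 entries, at similar ranks. The start of l(2)37Bb, on the opposite strand, lay 98 bp from the same summit. The Rpn3 promoter also held an exact direct repeat of 82 bases, with copies at bases 64 to 145 and 142 to 223 of the printed sequence, and the summit fell in the second copy. A repeat at least as long was found in 6 of 13945 promoters (0.0430%), and the next longest among the proteasome genes was 16 bases. Promoters were counted per gene, so divergent genes with overlapping windows, such as Rpn3 and l(2)37Bb, can count the same repeat more than once. The part of the repeat in read mapping and in the signal was not tested.

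Rpn5, a second lid subunit, was occupied through a peak that lay nearer to another gene. The gene (FBgn0028690) lies at chr3R:5789493-5791569 on the plus strand. Its entry had a signal value of 72.5 and rank 2312 in the pooled list, 40.7 and rank 2886 in replicate 2, and 36.6 and rank 1551 in replicate 3. The pooled summit at base 5789269 was 224 bp upstream of Rpn5 and inside an intron of Hat1, a histone acetyltransferase gene on the opposite strand, whose start was 115 bp away. With only the gene of the nearest start counted, Rpn5 was not occupied.

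Rpn11 encodes the metalloprotease of the lid that cuts ubiquitin chains off substrates as they enter the particle. The gene (FBgn0028694) lies at chr2L:5058404-5059790 on the minus strand. Its entry had a signal value of 66.9 and rank 2664 in the pooled list, 44.0 and rank 2528 in replicate 2, and 18.4 and rank 5010 in replicate 3. It was thus outside the strongest 2993 entries of replicate 3. Among the occupied proteasome genes its pooled summit, at base 5060131, was the farthest from a start, 341 bp upstream and outside annotated genes, against 176 bp upstream in replicate 2 and 317 bp upstream in replicate 3. It was also the only occupied proteasome gene with no start of another gene within 500 bp of the summit.

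Rpt2 and Rpt5 encode ATPases of the ring that threads substrates into the core, and of the 5 occupied genes theirs had the pooled summits closest to the start. Rpt2 (FBgn0015282, chr3R:23929873-23931558, minus strand) had a signal value of 67.5 and rank 2629 in the pooled list, 47.1 and rank 2274 in replicate 2, and 22.2 and rank 3508 in replicate 3. Its pooled summit at base 23931550 was 8 bp downstream of the start, in the 5′ UTR, and 89 bp from the divergent start of CG13599. Replicate 2 placed it inside its strongest 2993 entries and replicate 3 outside them. Rpt5 (FBgn0028684, chr3R:23752876-23754623, plus strand) had a signal value of 62.3 and rank 2977 in the pooled list, 47.9 and rank 2205 in replicate 2, and 12.9 and rank 11749 in replicate 3. Its pooled summit at base 23752867 was 9 bp upstream of the start and 33 bp from the divergent start of RanBP3, which codes for a Ran-binding protein. Rpt5 was the last proteasome gene inside the optimal list, and its replicates were far apart.

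The next proteasome gene in the pooled list, just outside the optimal list, was Rpn12, a lid subunit (FBgn0028693, chr3L:16583028-16584022, plus strand). It had a signal value of 53.9 and rank 3693 in the pooled list, 31.5 and rank 4441 in replicate 2, and 26.1 and rank 2703 in replicate 3, with the pooled summit 131 bp upstream. In replicate 3, Rpn12 was therefore placed above Rpn11, Rpt2 and Rpt5. Prosalpha5, of the alpha ring (FBgn0016697, chr2R:17412767-17413769, plus strand), had the best rank of a core gene, 4302 in the pooled list with a signal value of 48.6, against rank 7095 in replicate 2 and rank 3059 in replicate 3. Rpn8, the lid partner of Rpn11 (FBgn0002787, chr2R:24400028-24404527, plus strand), had pooled rank 4329, with ranks of 9636 in replicate 2 and 8853 in replicate 3. Its summit lay in an Rpn8 intron, 168 bp upstream of an internal start, with the divergent start of Slik, a kinase gene, nearer at 157 bp. Rpn13, a ubiquitin receptor (FBgn0033886, chr2R:13958545-13960404, minus strand), had pooled rank 4665, with ranks of 5404 in replicate 2 and 4525 in replicate 3. Prosbeta5, which carries the chymotrypsin-like site (FBgn0029134, chr2R:10819978-10821178, plus strand), had pooled rank 6175 and rank 4675 in replicate 2, and no entry in replicate 3. Its pooled summit lay 26 bp from the start of dgo, a planar polarity gene, and 120 bp from its own.

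**Figure D1:**
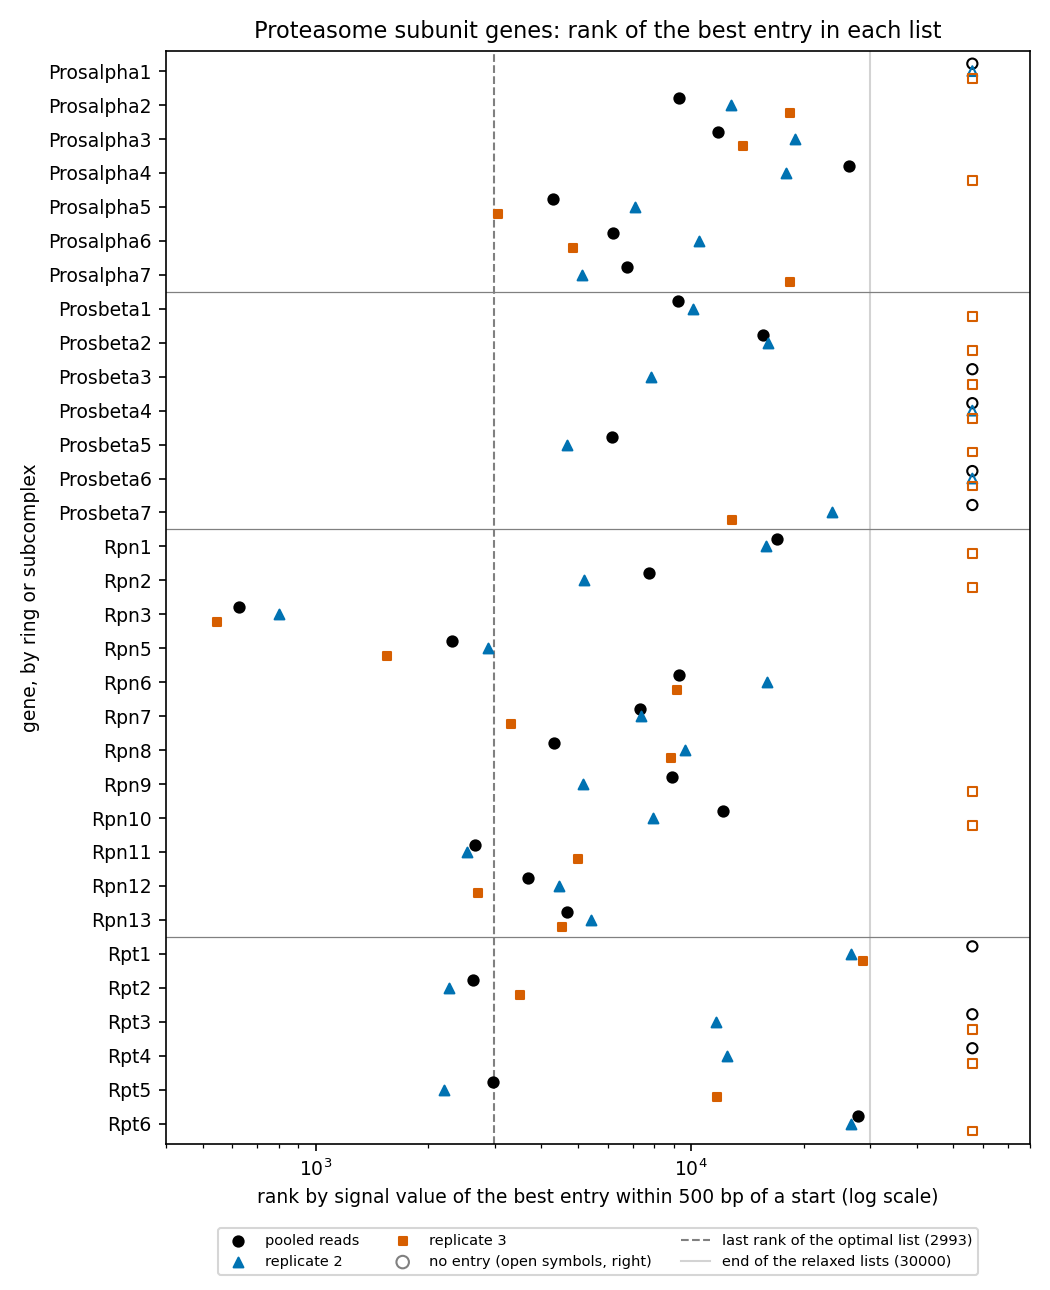
Rank of the best entry within 500 bp of a start for each of the 32 proteasome genes (rows, by ring or subcomplex) in the pooled, replicate 2 and replicate 3 relaxed lists (log axis; lower is stronger; open symbols at the right have no entry). Rpn3 sits apart at ranks 545 to 801, and 4 more Rpn and Rpt genes reach the dashed line at 2993 in the pooled list, whereas no Prosalpha or Prosbeta gene does.

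With weak entries counted, 24 of 32 proteasome genes (75.0%) had a pooled entry at a start, against 50.8% of all protein-coding genes. These were 15 of 18 regulatory genes (83.3%) and 9 of 14 core genes (64.3%). All 12 Rpn genes had one, whereas 3 of 6 Rpt genes did, so the ATPase ring held both occupied genes and genes without any pooled entry. In bands of rank chosen after the values were seen, 13 of 32 proteasome genes (40.6%) lay between the end of the optimal list and rank 10000, against 18.3% of all protein-coding genes. From rank 10001 to 20000 there were 4 proteasome genes (12.5%, against 10.9%), from 20001 to 30000 there were 2 (6.25%, against 7.00%), and 8 had no pooled entry (25.0%, against 49.2%). Among genes with a pooled entry the median best rank was 7052 for the proteasome genes and 6390 for all protein-coding genes, with 4665 for regulatory and 9256 for core genes. In replicate 2 these medians were 7948 for the proteasome genes and 6643 for all, and in replicate 3 they were 5010 and 6236, so the direction differed between the replicates. Each median covers only genes with an entry in that list, a larger share of the proteasome genes than of all genes. The medians of the lists therefore rest on different sets of genes and do not rank the proteasome genes as a whole.

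**Figure D2:**
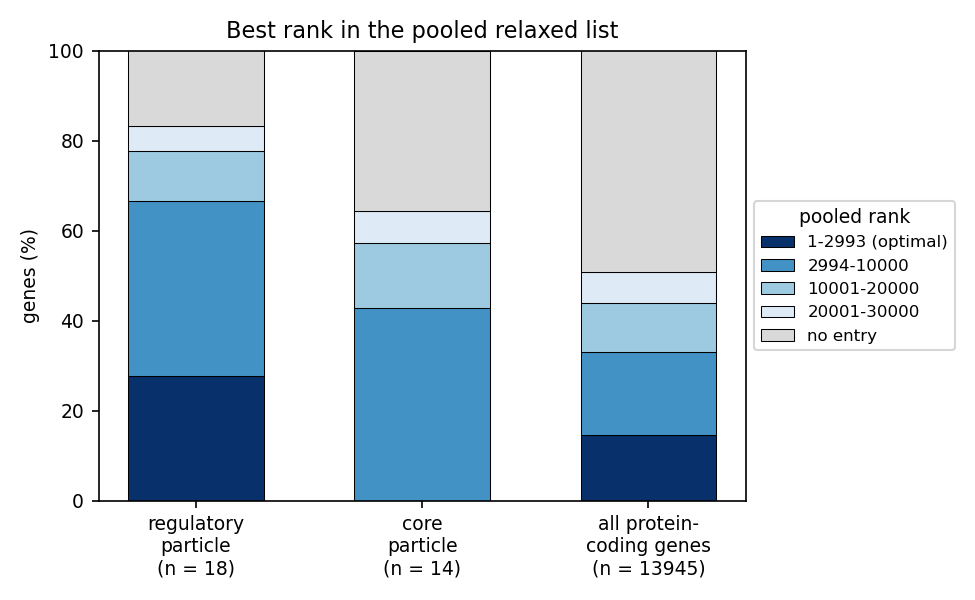
Stacked bars of the share of genes (percent) whose best pooled entry falls in each band of rank, for the 18 regulatory particle genes, the 14 core particle genes and all 13945 protein-coding genes. The optimal band holds 27.8%, 0 and 14.7% of the genes, the band just below it 38.9%, 42.9% and 18.3%, and genes without an entry make up 16.7%, 35.7% and 49.2%.

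The other core genes ranged from pooled rank 6188 to no entry in any list. The other alpha subunit genes with an entry, Prosalpha6, Prosalpha7, Prosalpha2, Prosalpha3 and Prosalpha4, had pooled ranks of 6188, 6773, 9302, 11848 and 26392. Among the genes for the other catalytic beta subunits, Prosbeta1 (caspase-like site) had pooled rank 9256 and Prosbeta2 (trypsin-like site) 15577, both without an entry in replicate 3. Prosalpha1, Prosbeta4 and Prosbeta6 had no entry in any of the lists. Prosbeta3 had an entry in replicate 2 alone, at rank 7827, and Prosbeta7 had weak entries in both replicates, at rank 23841 in replicate 2 and 12858 in replicate 3, but none in the pooled list.

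In the regulatory particle, the scaffold subunit genes Rpn2 and Rpn1 had pooled ranks of 7742 and 17016, and Rpn10, a ubiquitin receptor gene, had 12201. None of these had an entry in replicate 3. The lid genes Rpn7, Rpn9 and Rpn6 had pooled ranks of 7331, 8898 and 9290. Rpn9 also had no entry in replicate 3, where Rpn7 had rank 3321 and Rpn6 rank 9212. Of the remaining ATPase genes, Rpt6 had pooled rank 27971, and Rpt1, Rpt3 and Rpt4 had no pooled entry. In replicate 2 alone, Rpt3 had rank 11692 and Rpt4 rank 12494, and Rpt1 had ranks of 26768 in replicate 2 and 28716 in replicate 3. No entry served as the best entry of more than 1 proteasome gene. For the 27 genes that were not occupied, the nearest optimal summit was 1940 to 99849 bp from a start (median 10543 bp).

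The replicates differed in how many proteasome genes they contained. Replicate 2 had an entry at 29 of 32 (90.6%, against 53.2% of all protein-coding genes) and replicate 3 at 17 of 32 (53.1%, against 44.3%). All 18 regulatory and 11 of 14 core genes were in replicate 2, and 11 of 18 regulatory and 6 of 14 core genes were in replicate 3. Entries in replicate 2 alone were found for 12 proteasome genes (37.5%, against 17.2% of all protein-coding genes) and in replicate 3 alone for 0, against 8.35%. The excess over the background in the relaxed lists was therefore much larger in replicate 2, and with 2 libraries prepared under different protocol documents the replicate and the protocol cannot be told apart. In the strongest 2993 entries, replicate 2 had 5 of 32 (15.6%, against 14.7% of all protein-coding genes), the same 5 genes as the optimal list, and replicate 3 had 3 of 32 (9.38%, against 13.9%), namely Rpn3, Rpn5 and Rpn12. Of the 17 genes in both lists, 6 were placed higher in replicate 2 and 11 in replicate 3, against 2460 and 2549 of the protein-coding genes in both. Over these 17 genes, which come from the same pair of libraries, Spearman's rho between the ranks was 0.603, against 0.743 over the 5019 protein-coding genes in both, given as a description only.

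Summits at proteasome genes lay mostly just before the start. Of 24 pooled summits, 21 (87.5%) were upstream, against 76.8% of those at all 7089 protein-coding genes with an entry, and 19 (79.2%) were within 200 bp, against 60.9%. The median position was -125 bp for the proteasome genes and -119 bp for all, where negative is upstream. The 3 summits that were not upstream were those of Rpn10, Rpt2 and Prosalpha2, at 2, 8 and 55 bp. In replicate 2, upstream summits were found at 26 of 29 genes (89.7%, against 75.7% of all), with a median of -106 bp against -109 bp. In replicate 3 they were found at 15 of 17 (88.2%, against 74.8%), with a median of -118 bp against -129 bp.

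**Figure D3:**
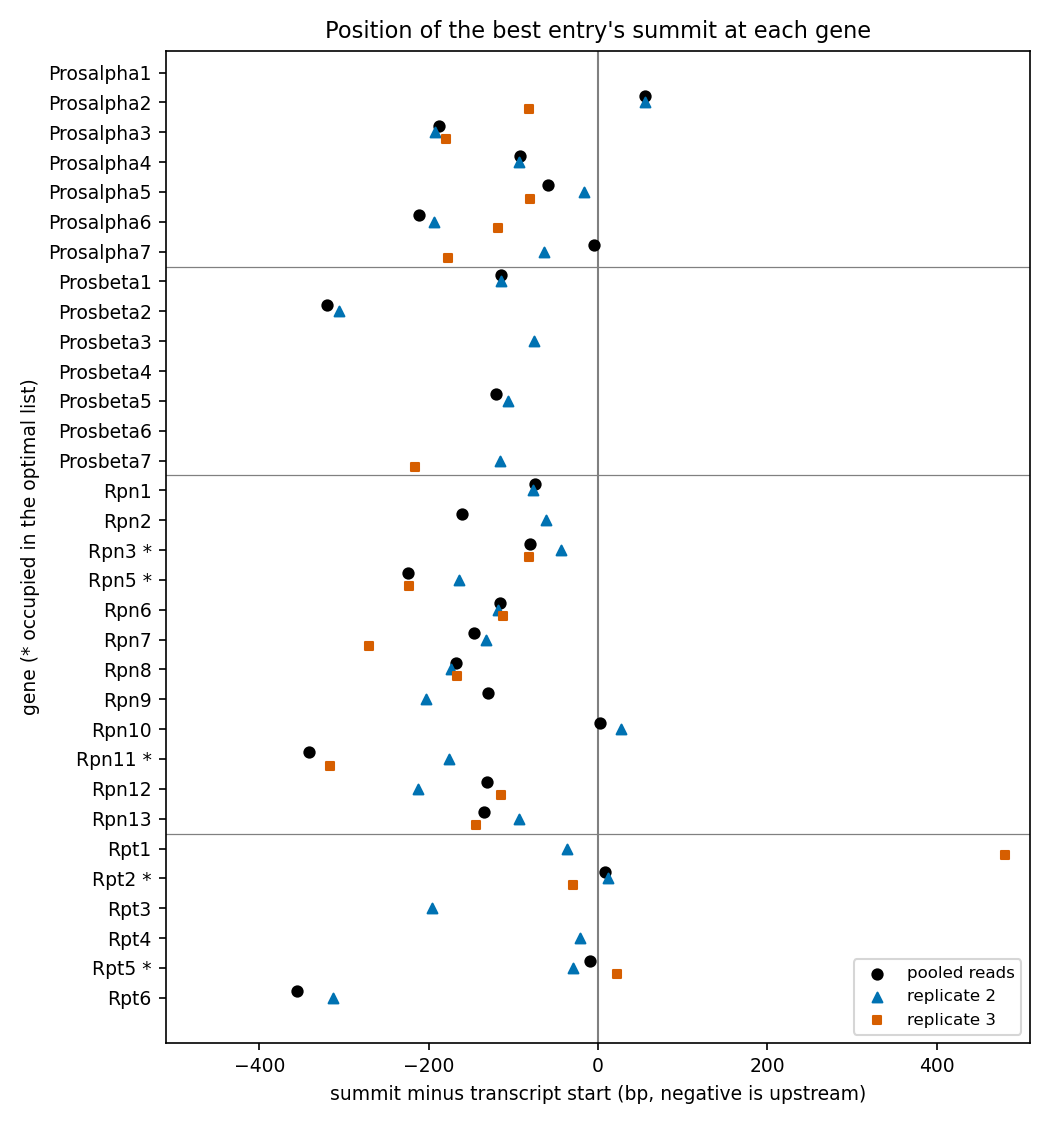
Distance in bp from the start of each proteasome gene to the summit of its best entry in the pooled, replicate 2 and replicate 3 lists (symbols; negative is upstream; asterisks mark occupied genes). Most pooled summits lie between the start and 200 bp upstream, with Rpn11 at -341 bp among the farthest.

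Many proteasome genes share their promoter with a gene on the opposite strand. A divergent start lay within 1000 bp for 22 of 32 (68.8%), against 39.6% of all protein-coding genes. Among genes with such a neighbour, 4 of 22 proteasome genes (18.2%) were occupied, against 26.0% of all, and 17 (77.3%) had a pooled entry, against 70.7%. Among genes without one, 1 of 10 proteasome genes was occupied, against 7.28% of all, and 7 of 10 had a pooled entry, against 37.8%. At divergent promoters the replicates fell on either side of the background, with an entry at 20 of 22 proteasome genes in replicate 2 (90.9%, against 74.1% of all) and at 11 of 22 in replicate 3 (against 59.6%). At 8 of the 24 pooled summits another gene's start was nearer than that of the proteasome gene, in 5 of 9 core and 3 of 15 regulatory genes. No share over all protein-coding genes is available for this count, so it is a description only. For Rpn3, Rpn5, Rpt2 and Rpt5, the entry lay within 500 bp of both starts, so the gene it belongs to cannot be told apart.

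Proteasome promoters were poor in G and C. The mean GC content from 250 bp before to 50 bp after the start was 33.9 ± 5.50% for the proteasome genes (SD, n = 32) and 39.2 ± 7.74% for all protein-coding genes (SD, n = 13945). It was 33.2 ± 4.14% in the 5 occupied and 34.1 ± 5.77% in the other 27 proteasome genes, a difference smaller than the spread within either set. Across members it ran from 23.0% at Prosbeta4 to 47.7% at Rpt4, neither of which had a pooled entry. Around the pooled summits, the central 100 bp held 33.8 ± 8.11% GC, against 46.6 ± 7.03% in flanks centred 400 bp away (SD, n = 24), and the centre was lower at 21 of 24 entries (87.5%). Over the 5510 distinct entries at all protein-coding genes, the centre held 37.0% and the flanks 43.8%, with the centre lower at 68.2%. The centre was lower at each of the 5 occupied proteasome genes, with 26.0% against 56.0% at Rpt2 and 45.0% against 53.5% at Rpt5 as the extremes of the gap. The effect of base composition on the signal was not tested.

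**Figure D4:**
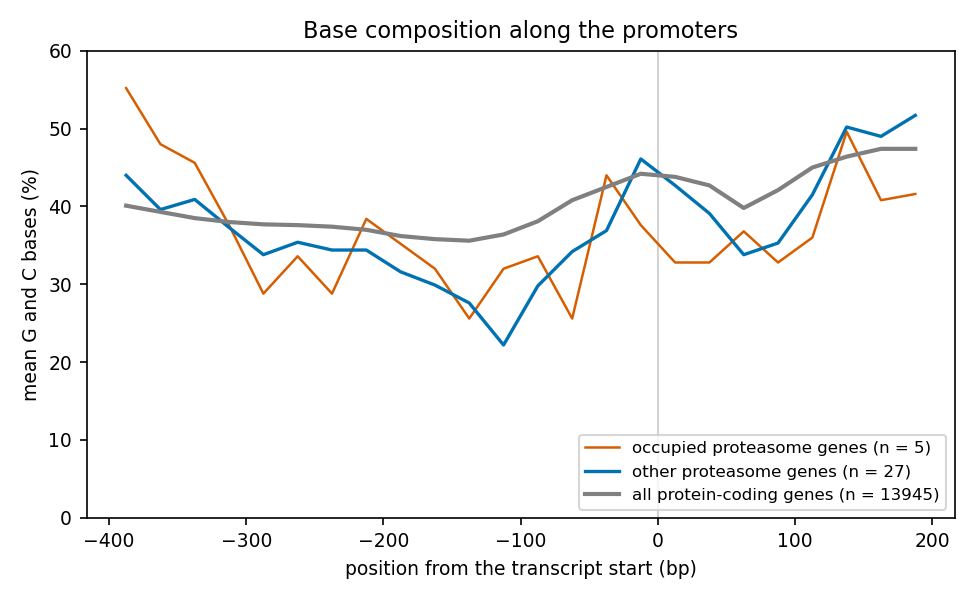
Mean GC content (percent) in bins around the transcript start, for the 5 occupied proteasome genes, the other 27 and all 13945 protein-coding genes (lines; distance in bp, negative is upstream). Both proteasome lines dip upstream of the start, to 25.6% in the occupied and 22.2% in the other genes, below the lowest point of all genes at 35.6%.

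Short consensus sequences were searched on both strands of the same 300-base windows, 8 in all. TATCGATA, the DNA replication-related element bound by Dref, was found in 11 of 32 (34.4%), against 9.07% of all protein-coding promoters. The 11 were Prosalpha3, Prosalpha5, Prosalpha6, Prosbeta1, Prosbeta2, Prosbeta6, Rpn3, Rpn7, Rpn12, Rpn13 and Rpt5. Among occupied genes, 2 of 5 proteasome genes held it (Rpn3 and Rpt5), against 12.9% of all occupied protein-coding genes, and of the others Prosbeta6 had no entry in any list. GGTCACACT, the core promoter sequence known as Ohler motif 1, was found in 6 of 32 (18.8%), against 5.88% of all. None of the 5 occupied ones held it, against 8.11% of all occupied protein-coding genes, a share too low for 5 genes to show a lack.

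Of the other 6, the AT sequence was above the background share and 5 were below it. TATAAA, the TATA box, was in 14 of 32 (43.8%, against 45.6% of all) and ATTTAAAA in 6 (18.8%, against 14.0%). TGANNNNGC, the core of the antioxidant response element bound by Cnc-type factors, was in 9 (28.1%, against 35.7%). Among the occupied genes it was in Rpn5 and Rpn11, against 32.4% of all occupied protein-coding genes. CAGCTG, an E-box, was in 3 (9.38%, against 17.9%), GAGAG in 3 (9.38%, against 30.5%) and TAATTA in 4 (12.5%, against 20.3%). These shares moved with the window: with 500 bp before the start, GAGAG was in 10 proteasome promoters (31.2%, against 44.8%), TAATTA in 11 (34.4%, against 35.1%), CAGCTG in 5 (15.6%, against 26.3%) and TGANNNNGC in 15 (46.9%, against 55.0%). TATAAA was in 4 of the 5 occupied promoters, all but that of Rpn3, against 47.7% of all occupied protein-coding genes. Matches were counted anywhere in the window, so TATAAA was not required to lie at the distance of a working TATA box. A match describes the letters only, and overlapping matches on the 2 strands count once per promoter.

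**Figure D5:**
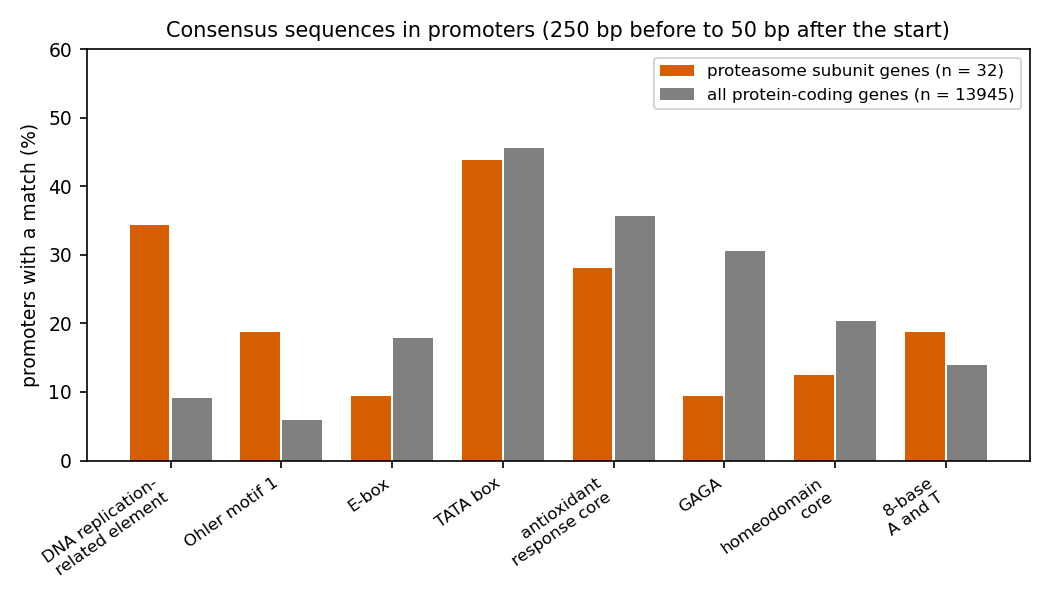
Share of promoters (percent, 250 bp before to 50 bp after the start) that hold each of 8 consensus sequences, for the 32 proteasome genes and for all 13945 protein-coding genes. The DNA replication-related element (34.4% and 9.07%) and Ohler motif 1 (18.8% and 5.88%) are above the background, and the GAGA sequence is below it (9.38% and 30.5%, or 31.2% and 44.8% with 500 bp before the start).

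Genes around the proteasome were looked up in the same way. Of 16 paralogs of the subunit genes, whose symbols carry T or R and many of which are known from the testis, 0 were occupied, against 14.7% of all protein-coding genes, and 3 (18.8%, against 50.8%) had a pooled entry, the best being Rpt3R at rank 13343. A further list held 17 genes for assembly, activation, ubiquitin supply, ubiquitin removal and substrate delivery. Of these, 2 (11.8%, against 14.7% of all protein-coding genes) were occupied. A pooled entry was present at 16 (94.1%, against 50.8%), with a median rank of 6113. The occupied ones were Pomp, the core assembly chaperone, at pooled rank 630 (629 in replicate 2 and 598 in replicate 3) and PI31, a proteasome regulator, at 2213 (3358 in replicate 2 and 1753 in replicate 3). Pomp thus had a pooled rank close to that of Rpn3. The occupied share of the 17 genes was below that of all protein-coding genes, so Pomp is described as a single gene only. Sem1, which the symbol rule leaves out of the 32 proteasome genes, was among the 17 and was not occupied, at pooled rank 12619.

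Of 6 genes for transcription regulators tied to the proteasome or to the sequences searched, 4 (66.7%) were occupied and all had a pooled entry. M1BP, which binds Ohler motif 1, had pooled rank 669 (833 in replicate 2 and 577 in replicate 3). Keap1, which holds the Cnc protein in check, had 937 (844 in replicate 2 and 1475 in replicate 3). Dref had 976 (585 in replicate 2 and 2577 in replicate 3), and the forkhead factor gene foxo had 1627 (1803 in replicate 2 and 2217 in replicate 3). The genes for Cnc, whose relatives drive proteasome genes in mammals, and for its partner Maf-S were not occupied, with cnc at pooled rank 3568 and maf-S at 6138. The 6 genes were picked with earlier results of these data known, so their count stands as a description beside the 14.7% of all protein-coding genes.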

How the data were processed

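ChIP-seq peak lists from 2 biological replicates were used. The authors called relaxed lists against 1 control from each replicate and from both pooled, and IDR gave the optimal list, per the deposited sample notes. Each entry carries a deposited signal value, a score of unstated scaling from the authors' caller, and a −log10 q-value, which is the same for every entry of the optimal list and was not used. Aligner, caller and versions: not given in the sources used here. Lists in build dm3 were not used.

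Entries were ranked by signal value and tied by summit to transcript starts (Ensembl release 115, 13945 protein-coding genes on the main chromosome arms, 23998 starts) within 500 bp. Promoters came from the first start in the direction of transcription, or the start nearest to the best pooled entry, in the Release 6 sequence. Tools were pandas 2.3.3, numpy 2.4.6 and scipy 1.17.1 in Python 3.11.15, with matplotlib 3.10.9 for plots. The step that ties summits to starts was tested on simulated summits placed near annotated starts. The consensus and repeat searches were not tested in this way.

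The members and lists were chosen with earlier results of these data known, so only descriptions are given. By rule, every member could be named, with full values for occupied members and the 5 best ranked others; other genes were named where a start lay within 500 bp of such a summit or where they belonged to the additional lists. Of 18 assembly and ubiquitin genes listed, 17 matched the annotation. Rank bands and the repeat search were chosen after values were seen. The files hold no read counts, so depth is unknown and no counting interval is given. Distance, list length, the rule for starts, promoter window and replicate were varied.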

Additional observations from a re-analysis of the deposited data

How the results depend on the processing

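The count of 5 occupied proteasome genes moved most with the length of the list, from 1 to 9. It was 3 with summits within 200 bp (9.96% of all protein-coding genes), 3 where the peak had to cover a start (9.49%), 1 with the strongest 1496 peaks (Rpn3, with 8.18% of all), and 9 with the top 5986 pooled entries (24.4%), which added Prosalpha5, Rpn8, Rpn12 and Rpn13. It was 5 at 1000 bp (16.7% of all) and with starts of coding transcripts (14.7%), and 4 by nearest start (10.4%). With 1 replicate in place of both it was 3 without replicate 2 (Rpn3, Rpn5 and Rpn12, with 13.9% of all) and 5 without replicate 3 (14.7%). Rpn3 was occupied in all 9 alternatives, Rpt2 and Rpt5 in 7, Rpn5 and Rpn11 in 5. In 8 of the 9, no core gene was occupied, and the top 5986 pooled entries brought in Prosalpha5. These tallies are not independent checks. The 200 bp distance, the nearest-start and coding-start rules and the strongest 1496 peaks could only drop genes. The 1000 bp distance and the longer list could only add them. The 24 genes with a pooled entry (75.0%, against 50.8% of all protein-coding genes) became 21 at 200 bp (35.7% of all) and 26 at 1000 bp (59.7%). They became 17 without replicate 2 (44.3% of all) and 29 without replicate 3 (53.2%). The median rank was 5010 without replicate 2 (6236 for all genes) and 7948 without replicate 3 (6643), against 7052 (6390) as reported. Its direction against all genes thus turned without replicate 2, over a different set of genes with an entry. Mean promoter GC was 37.5% with 100 bp before the start, against 42.0% in all genes. With 500 bp before the start, proteasome promoters with a match numbered 5 for CAGCTG (15.6%, against 26.3% of all), 15 for TGANNNNGC (46.9%, against 55.0%), 10 for GAGAG (31.2%, against 44.8%), 11 for TAATTA (34.4%, against 35.1%) and 14 for TATCGATA (11.2% of all). The median summit position was -118 bp without replicate 2 (-129 bp for all genes) and -106 bp without replicate 3 (-109 bp), alternatives chosen after seeing the data. No paired analysis was possible because there was only 1 group. Unknown read depth limits every statement on weak or absent entries.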

Other observations

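The proteasome genes are spread over 5 chromosome arms, and their occupied members lay on 2 of them. On 2L, 2 of 4 were occupied (against 15.4% of all protein-coding genes on that arm), and on 3R, 3 of 9 (against 16.0%). On 2R, 0 of 10 were occupied (against 13.1%), and 8 had a pooled entry (against 49.3%). On 3L, 0 of 5 were occupied (against 16.1%), with 4 pooled entries (against 52.9%). On X, 0 of 4 were occupied (against 12.5%), and 2 had a pooled entry (against 49.8%). These pooled entries, at Prosalpha4 and Rpt6, were the lowest ranked of the proteasome genes in that list, at 26392 and 27971. In replicate 2 the lowest ranked was Rpt1 on 2R, at 26768, and the X genes ran from 11692 (Rpt3) to 26747 (Rpt6). These counts per arm are small and were not tested.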
